A study of Sus scrofa with 8 samples.

Results

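ND4, ND4L and CYTB are 3 protein genes of the mitochondrial genome, and their counts are described here in backfat, the fat under the skin of the back, from 4 pigs of the Alentejano (AL) and 4 of the Bísaro (BI) breed. They were taken by gene name from the 458 genes for which a normalized count of each pig was given, and each of the 3 names had 1 row (ND4 is ENSSSCG00000018087, ND4L is ENSSSCG00000018086 and CYTB is ENSSSCG00000018094). AL and BI are local Portuguese breeds, and all 8 animals were purebred castrated males that were fed individually and freely on commercial diets to about 150 kg, a weight that the labels call carcass weight. One library was made per pig (AL pigs 44, 49, 52 and 63; BI pigs 25, 34, 36 and 37), so the spread within a breed is that between animals together with that between libraries. The breeds were compared to ask how gene expression in the fat depot of a fat breed differs from that of a leaner breed. A normalized count is the number of reads assigned to a gene divided by the size factor of the library, so it is comparable between pigs and not between genes unless divided by gene length.

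The mitochondrial genome is a small circular DNA present in many copies per cell. Each of its strands is transcribed as a long precursor, which is cut mostly at the transfer RNAs that lie between the protein genes, and ND4L and ND4 stay together on 1 messenger RNA. ND4 and ND4L are membrane subunits of complex I, which takes electrons from NADH, while cytochrome b, the product of CYTB, is the catalytic membrane subunit of complex III, which passes electrons on to cytochrome c. Both complexes pump protons, and all their other subunits, apart from the other ND genes, come from the nucleus.

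In the RefSeq annotation of Sscrofa11.1, the build to which the reads had been aligned, the mitochondrial genome is 16613 bases long and holds 13 protein genes, 22 transfer RNAs and 2 ribosomal RNAs. ND4L (MT:11069-11365, 297 bases) and ND4 (MT:11359-12736, 1378 bases) lie next to each other, and CYTB (MT:15342-16481, 1140 bases) begins 2605 bases after the end of ND4. All 3 genes are single coding exons on the same strand, which carries 12 of the 13 protein genes. Their GC content was 37.4% in ND4L, 39.9% in ND4 and 41.8% in CYTB, within the range of 31.9% to 44.01% of the 13 genes.
The following stretches of the reference show where the counts of the 3 genes begin, meet and end. Capitals mark the first codon of ND4L in the first, the 7 bases that belong to both ND4L and ND4 in the second, the last base of ND4 before the transfer RNA for histidine in the third and the first codon of CYTB in the fourth.
ND4L start, MT:11049-11108, plus strand: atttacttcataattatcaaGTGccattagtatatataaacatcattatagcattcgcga
ND4L and ND4 junction, MT:11329-11395, plus strand: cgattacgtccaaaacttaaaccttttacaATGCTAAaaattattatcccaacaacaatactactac
ND4 end, MT:12707-12766, plus strand: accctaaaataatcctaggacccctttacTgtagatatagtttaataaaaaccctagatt
CYTB start, MT:15322-15381, plus strand: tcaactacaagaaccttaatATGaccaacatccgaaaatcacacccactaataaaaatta
The first ND4L codon is GTG rather than ATG. The stop codon of ND4 is annotated as completed on the RNA after its last base, as that of 5 other protein genes is. A read that spans the shared 7 bases lies in both genes, and how such reads were assigned is not given in the sources used here.

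The nuclear genome holds partial and complete copies of these sequences, from which reads could be taken up or to which reads could be lost. BLASTN found 22 nuclear matches to ND4, 12 to ND4L and 22 to CYTB. The most similar copy spanning at least 95% of the gene was 90.5% identical for ND4 (chr2:115568917-115570291), 86.5% for ND4L (chr2:93848475-93848771) and 89.3% for CYTB (chr2:115572887-115574025). The longest identical stretch was 61 bases for ND4, 26 for ND4L and 56 for CYTB. These distances hold for the reference animal, and the mitochondrial DNA of the 8 pigs was not analysed here.

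A mean normalized count over the 8 pigs, made by the authors and here called the authors' mean, was listed for 10710 genes, and all 3 genes were among the more abundant. ND4 had rank 27 with 14379, CYTB rank 227 with 1848 and ND4L rank 322 with 1307. Since longer genes collect more reads, the 13 mitochondrial protein genes were set side by side per kilobase of gene. On this scale the authors' mean was 10435 for ND4 (rank 3 of the 13), 4399 for ND4L (rank 7) and 1621 for CYTB (rank 10). ND4L therefore stood above CYTB per kilobase although its count was lower. ND4 and ND4L, which share a messenger RNA, differed 2.37-fold per kilobase. The strand of the reads counted for them and the assignment of reads in their shared bases are not known.

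**Figure D1:**
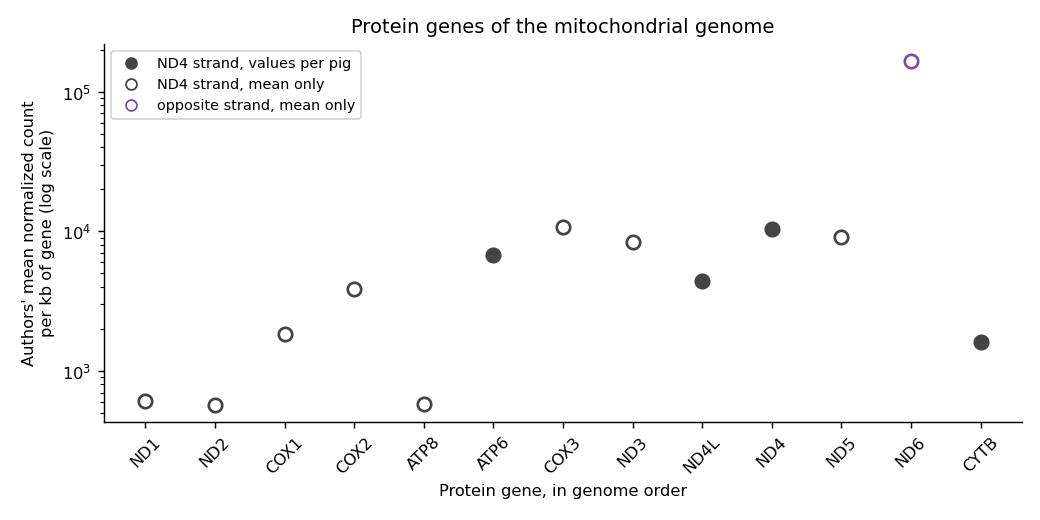
Authors' mean normalized count per kilobase of gene (log scale) for the 13 protein genes of the mitochondrial genome, in their order along it; filled points have values per pig and the purple point lies on the opposite strand. ND6 stands at 165960 and the other 12 between 571.5 and 10735, with ND4 at rank 3, ND4L at rank 7 and CYTB at rank 10.

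The highest of the 13 was ND6, a complex I subunit and the only protein gene on the opposite strand, with an authors' mean of 165960 per kilobase. This was 15.5-fold above COX3, the next gene, 15.9-fold above ND4, 37.7-fold above ND4L and 102-fold above CYTB. The libraries were stranded, but the strand setting of the counting is not given in the sources used here. Reads of a gene and reads of the opposite strand at the same place cannot be told apart in these counts, so the values below are counts assigned to ND4, ND4L and CYTB, and which strand they came from was not tested.

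Adipocyte markers were looked up in the same list. All 8 adipocyte markers had a mean, from 77.5 for LEP, the gene of the hormone leptin, to 3862 for the fatty acid synthase gene FASN. ADIPOQ, the gene of the adipocyte hormone adiponectin, had rank 1310 of the 10710 genes with 173, far below ND4. A mean was also listed for 10 of 18 skeletal muscle, 6 of 7 macrophage and 5 of 6 endothelial markers. The muscle gene CKM, at rank 436 with 987, lay above ADIPOQ. Having a mean therefore does not by itself tell the tissue. The size factors of the AL pigs lay between 0.675 and 1.10 and those of the BI pigs between 1.06 and 1.46, so the scaling itself differed between the breeds.

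Counts of all 3 genes were higher on average in AL than in BI, by 1.28 to 1.86 on the log2 scale, and BI pig 37 lay among the AL pigs. Values per pig were given only for genes already called different between the breeds by the study's own test, 458 in all, so a difference between the breeds is what placed a gene in this list. The fold changes are therefore given as a description without a test.

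ND4, a core membrane subunit of complex I, had normalized counts of 13358.6, 28210.8, 25889.8 and 14215.5 in AL pigs 44, 49, 52 and 63. In BI pigs 25, 34, 36 and 37 they were 3865.5, 6122.3, 5901.5 and 17468.0. AL pigs 49 and 52 were the highest, BI pig 37 exceeded AL pigs 44 and 63, and the other 3 BI pigs lay below every AL pig. The mean was 20419 ± 7724 in AL and 8339 ± 6170 in BI (SD, n = 4 each), and the log2 fold change (log2 FC), AL minus BI on the log2(normalized count + 1) scale, was 1.46 ± 0.54 (standard error).

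ND4L, the small complex I subunit encoded upstream of ND4, had normalized counts of 1142.1, 2340.5, 2532.9 and 1695.9 in AL pigs 44, 49, 52 and 63. The BI pigs 25, 34, 36 and 37 had 230.9, 445.8, 377.0 and 1686.6. BI pig 37 exceeded AL pig 44 and nearly equalled AL pig 63, whereas the other 3 BI pigs were below all AL pigs. The mean was 1928 ± 634 in AL and 685 ± 674 in BI (SD, n = 4 each), and the log2 FC was 1.86 ± 0.67 (standard error).

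CYTB, the gene of cytochrome b, had normalized counts of 2291.6, 3009.8, 3218.8 and 1718.5 in AL pigs 44, 49, 52 and 63. They were 616.3, 891.6, 965.6 and 2069.9 in BI pigs 25, 34, 36 and 37. Here BI pig 37 exceeded AL pig 63 only, and the order of AL pigs 44 and 63 was the reverse of that in ND4 and ND4L. The mean was 2560 ± 687 in AL and 1136 ± 641 in BI (SD, n = 4 each), which gave a log2 FC of 1.28 ± 0.42 (standard error).

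**Figure D2:**
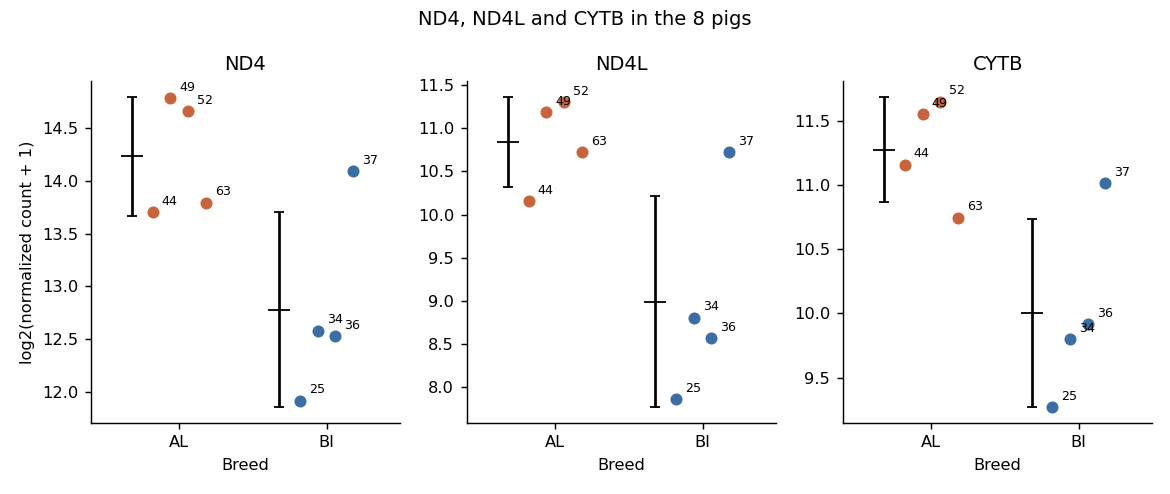
Normalized counts of ND4, ND4L and CYTB as log2(count + 1), with 1 point per pig numbered as in the text and the mean ± SD of each breed (n = 4) as a black bar. BI pig 37 lies within the range of the AL pigs in all 3 panels, and the other 3 BI pigs lie below all 4 AL pigs.

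The breeds thus overlapped in 3 of the 3 genes. Among all 458 genes, 79.5% had no overlap of the breeds, and 48.3% had none with AL higher. The overlap of these normalized counts rested on BI pig 37. Without it the 3 genes did not overlap, as was then the case for 89.7% of the 458 genes (53.5% with AL higher). In reads without size factors, CYTB overlapped even without this pig, with 1298 in BI pig 34 and 1294 in AL pig 63. The log2 FC of normalized counts without BI pig 37 was 1.89 for ND4, 2.44 for ND4L and 1.62 for CYTB. The value of BI pig 37 exceeded the mean of the other 3 BI pigs by 1.75, 2.31 and 1.35 on the log2 scale. BI pig 37 was also the BI pig nearest to the AL mean in 225 of the 454 genes with values per pig other than ND4, ND4L, CYTB and ATP6 (49.6%), against 123 for BI pig 36, 69 for BI pig 25 and 37 for BI pig 34. Its share was 59.1% of the 259 genes higher in AL and 36.9% of the 195 genes higher in BI.

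Counting error was small beside the spread between pigs. The lowest number of reads recovered was 302 for ND4L, in BI pig 25, whose counting error is 5.75%. The lowest was 806 for CYTB and 5055 for ND4. The choice of scaling moved the size of the difference and not its direction: reads without any size factor gave a log2 FC of 0.90 for ND4, 1.31 for ND4L and 0.73 for CYTB, while the median over all 458 genes shifted by -0.55, from 0.83 to 0.27. Relative to that median, the 3 genes stood 0.63, 1.03 and 0.45 higher with the authors' size factors. Of the genes without overlap, 60.7% were higher in AL with the authors' size factors and 17.0% without any.

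How far the 3 counts moved together between animals was examined within the breeds, by taking from each pig's log2 value the mean of its breed. The deviations of ND4 were -0.53, 0.55, 0.42 and -0.44 in AL pigs 44, 49, 52 and 63 and -0.86, -0.20, -0.25 and 1.31 in BI pigs 25, 34, 36 and 37. For ND4L, over the pigs in this order, they were -0.69, 0.35, 0.46 and -0.12 in AL and -1.13, -0.18, -0.42 and 1.73 in BI. For CYTB they were -0.12, 0.28, 0.37 and -0.53 in AL and -0.73, -0.20, -0.08 and 1.01 in BI. Every pig deviated in the same direction for the 3 genes. AL pigs 49 and 52 and BI pig 37 were above their breed mean and the other 5 pigs below it.

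**Figure D3:**
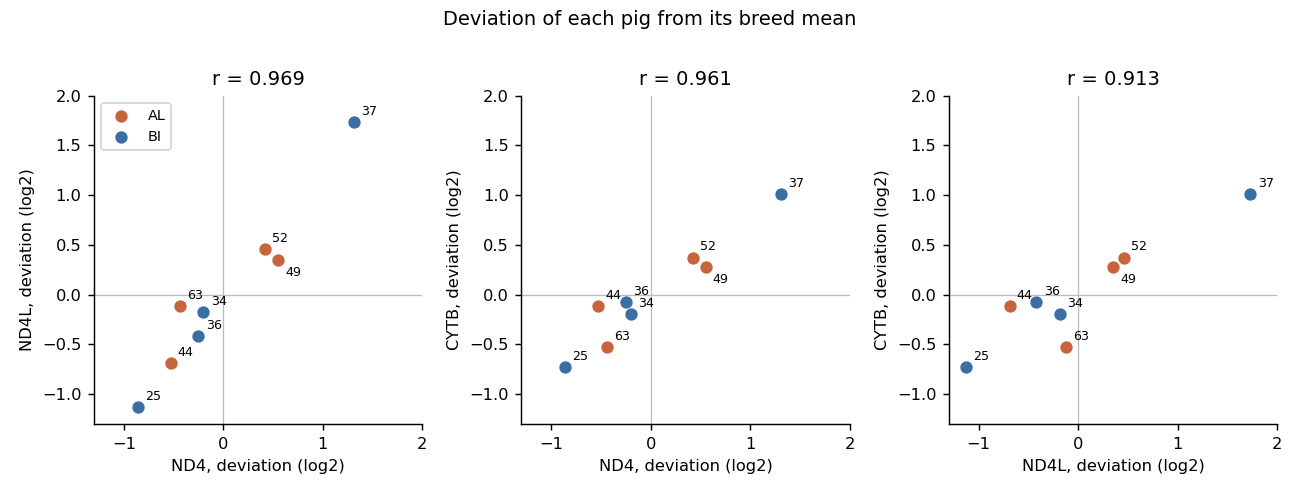
Deviation of each pig from the mean of its breed, in log2 units, for the 3 pairs of genes; orange points are AL and blue points BI pigs, numbered as in the text. The points run from BI pig 25 at the lower left to BI pig 37 at the upper right, with Pearson's r of 0.969, 0.961 and 0.913.

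Pearson's r over the 8 pigs was 0.969 for ND4 with ND4L, the pair on 1 messenger RNA (exact permutation p = 0.00521 over the 576 pairings within breeds, two-sided, adjusted over the 3 pairs p = 0.0156). It was 0.961 for ND4 with CYTB (exact permutation p = 0.0139, adjusted p = 0.0191) and 0.913 for ND4L with CYTB (exact permutation p = 0.0191, adjusted p = 0.0191). Spearman's rho was 0.905, 0.857 and 0.786, with exact permutation p-values of 0.0104, 0.0278 and 0.0469 and adjusted values of 0.0312, 0.0417 and 0.0469. Of the 104653 pairs among all 458 genes, whose median r was 0.08, 0.0936% reached the r of ND4 with ND4L, 0.167% that of ND4 with CYTB and 0.930% that of ND4L with CYTB. These pairs include genes higher in BI, whereas ND4, ND4L and CYTB were all higher in AL, so the shares among like pairs may differ. The values of 1 pig share its library and its size factor. Without size factors r was 0.970, 0.980 and 0.930.

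The relation leaned on the pigs at its ends. When the 2 pigs farthest from the median deviation of the first gene were left out, r of ND4 with ND4L was 0.932 without AL pig 49 and BI pig 37 (exact permutation p = 0.0278, the smallest that the remaining 36 pairings allow, adjusted p = 0.0834). For ND4 with CYTB, without the same pigs, r was 0.889 (exact permutation p = 0.111, adjusted p = 0.167). For ND4L with CYTB, without BI pigs 25 and 37, r was 0.598 (exact permutation p = 0.417, adjusted p = 0.417), so this relation rested on those pigs. With these pigs left out, none of the 3 pairs passed the threshold after adjustment. With BI pig 37 alone left out, r was 0.916, 0.889 and 0.729, with adjusted permutation p-values of 0.0625, 0.0833 and 0.111. With BI pig 25 alone left out, r was 0.957, 0.946 and 0.871, with adjusted permutation p-values of 0.0625, 0.0764 and 0.0764.

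The SD of the log2 values within a breed was 0.56 in AL and 0.93 in BI for ND4, 0.52 and 1.22 for ND4L, and 0.41 and 0.73 for CYTB. The median over all 458 genes was 0.34 in AL and 0.48 in BI, so the 3 genes varied more between pigs of the same breed than the median gene of the list.

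Ratios between genes of the same pig do not depend on the size factor, and they were compared between the breeds with exact permutation tests over the 70 splits of the pigs, for which the smallest two-sided p is 0.029, or 0.086 after adjustment where 1 of the 3 ratios alone reaches it. The ND4L count was 8.55%, 8.30%, 9.78% and 11.9% of the ND4 count in AL pigs 44, 49, 52 and 63. It was 5.97%, 7.28%, 6.39% and 9.66% in BI pigs 25, 34, 36 and 37. The ratio was lowest in the 3 BI pigs with the lowest normalized counts of both genes, and BI pig 37 lay within the AL range. The difference of the mean log2 ratio, AL minus BI, was 0.40 ± 0.19 (standard error), with overlapping breeds (exact permutation p = 0.086, adjusted p = 0.26 over 3 ratios, two-sided). Since 1 ratio alone could not pass the threshold after adjustment, the test cannot decide whether the breeds differ in it. Without BI pig 37, every AL pig lay above every remaining BI pig in this ratio, with a difference of 0.54 and an adjusted permutation p of 0.086, the smallest that it could then reach alone.

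The CYTB count was 17.2%, 10.7%, 12.4% and 12.1% of the ND4 count in AL pigs 44, 49, 52 and 63. It was 15.9%, 14.6%, 16.4% and 11.8% in BI pigs 25, 34, 36 and 37. AL pig 44 was the highest of all, and BI pig 37 fell below the other BI pigs. The mean log2 ratio differed by -0.18 ± 0.18 in standard error (exact permutation p = 0.40, adjusted p = 0.40). The ND4L count was 49.8%, 77.8%, 78.7% and 98.7% of the CYTB count in AL pigs 44, 49, 52 and 63. It was 37.5%, 39.04% and 81.5% in BI pigs 25, 36 and 37, and BI pig 34 lay next to AL pig 44. The mean log2 ratio differed by 0.58 ± 0.33 in standard error, again with overlapping breeds (exact permutation p = 0.20, adjusted p = 0.30).

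**Figure D4:**
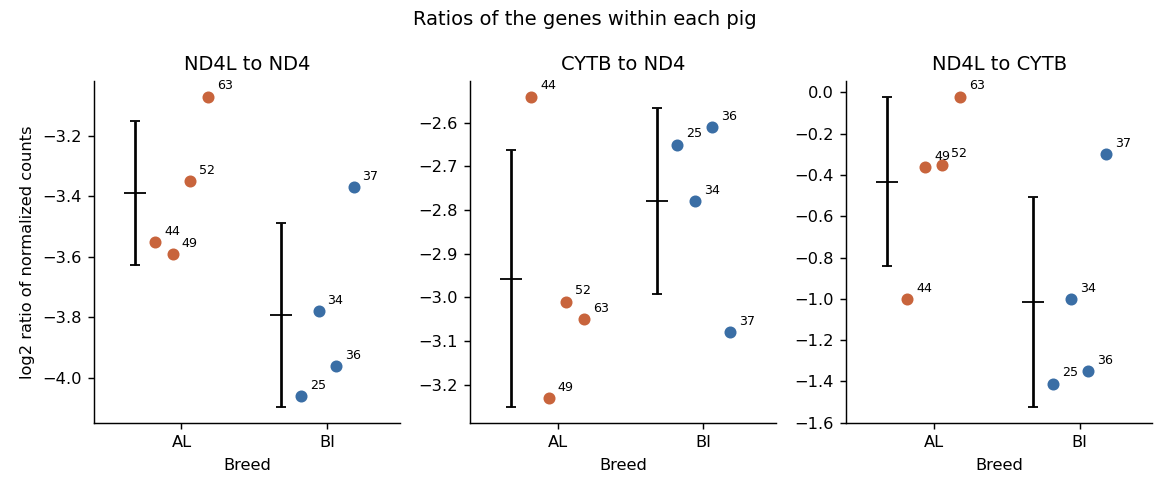
The log2 ratio of normalized counts within each pig for ND4L to ND4, CYTB to ND4 and ND4L to CYTB, with 1 numbered point per pig and the mean ± SD of each breed (n = 4) as a black bar. The breeds overlap in all 3 panels, with differences of 0.40, -0.18 and 0.58 (AL minus BI).

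Of the other 10 mitochondrial protein genes, ATP6 alone had values per pig. ATP6 encodes the proton channel subunit of ATP synthase (complex V). Its normalized counts were 6289.7, 8841.7, 6148.3 and 4843.4 in AL pigs 44, 49, 52 and 63 and 1144.0, 2257.1, 2210.9 and 5247.1 in BI pigs 25, 34, 36 and 37. BI pig 37 exceeded AL pig 63 only, as it did for CYTB. Its log2 FC was 1.45 ± 0.48 (standard error). ND1, ND2, ND3, ND5, ND6, COX1, COX2, COX3 and ATP8 had an authors' mean only, and their values per pig were not analysed here. Thus 4 of the 13 mitochondrial protein genes were among those with values per pig, against 458 of the 10710 genes in all (4.28%). ND4, ND4L and CYTB were taken from that list, so their presence in it was set by that choice. Of the other 10, only ATP6 was in it.

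Likeness to the 3 genes was measured for the other 455 genes as Pearson's r, over the 8 pigs, between the breed-centred log2 values of a gene and the mean deviation of ND4, ND4L and CYTB. The median r was 0.26, 153 genes had a negative r (33.6%), and 7 genes reached 0.9. These correlations share libraries and size factors and are given as a description. The 5 highest were TUBB2B, a beta-tubulin gene, with 0.94, RASAL3, a gene of a Ras-inhibiting protein, with 0.93, ATP6 with 0.92, ENSSSCG00000034755, which has no name, with 0.92, and CCDC158, a coiled-coil protein gene, with 0.91. ATP6 was therefore at rank 3 of 455. TUBB2B had 786.6, 1093, 1117 and 1029 normalized counts in AL pigs 44, 49, 52 and 63 and 361.7, 476.7, 393.1 and 907.4 in BI pigs 25, 34, 36 and 37. In all 5 genes BI pig 37 was the highest BI pig. At the other end, USP35, a deubiquitinase gene named after its value was seen, had the lowest r with -0.97. Its normalized counts were 20.7, 8.16, 5.38 and 13.3 in AL pigs 44, 49, 52 and 63 but 74.2, 52.2, 44.4 and 5.83 in BI pigs 25, 34, 36 and 37, with BI pig 37 again among the AL pigs. These are few reads in the AL pigs and in BI pig 37.

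**Figure D5:**
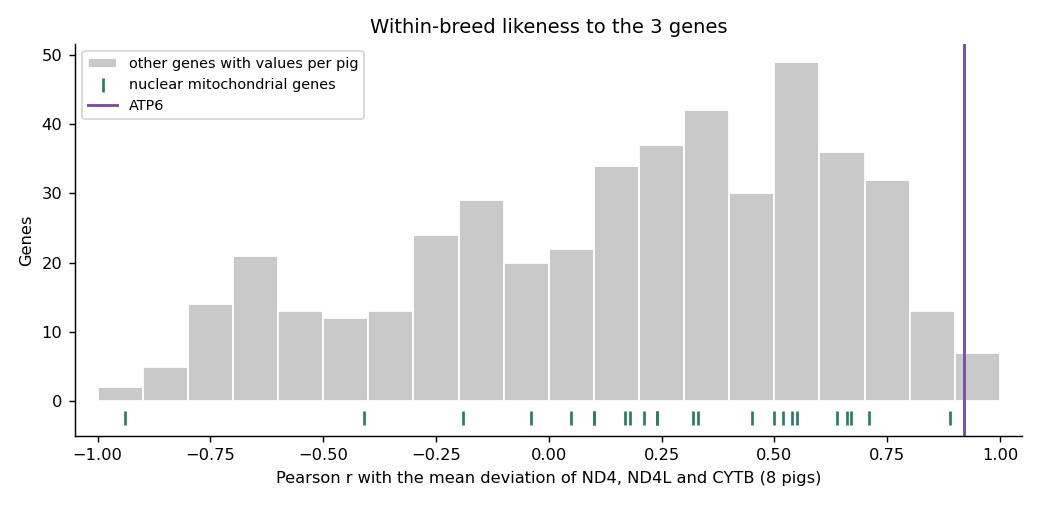
Histogram of Pearson's r, over the 8 pigs, between the breed-centred log2 values of each of the other 455 genes and the mean deviation of ND4, ND4L and CYTB; green ticks under the axis mark 24 nuclear genes of mitochondrial proteins and the purple line marks ATP6. The median is 0.26, ATP6 stands at 0.92 and the green ticks run from -0.94 to 0.89.

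Mitochondrial proteins made from nuclear genes were described from lists of 31 genes, of which 24 had values per pig, against 4.28% of all genes. The lists were chosen with earlier results of these data known. The counts below therefore describe the listed genes, not nuclear genes of mitochondrial proteins in general. Of these 24, 20 were higher on average in AL (19 without overlap of the breeds) and 4 in BI (4 without overlap). Over all 458 genes, 48.3% had no overlap with AL higher and 31.2% with BI higher. The 24 genes had a median log2 FC of 1.004 against 0.83 over all 458 genes, of which 57.4% were higher in AL. The 20 genes were higher in AL under each of the 3 other scalings too. This could hardly have come out otherwise: the largest shift of the median over all 458 genes was -0.65, with upper-quartile scaling. The lowest log2 FC among the 20 was 0.67, for DHX30. The median r of the 24 genes with ND4, ND4L and CYTB was 0.28, and that of the other 455 genes was 0.26. The highest r among the 455 belonged mostly to genes higher in AL, and the lowest mostly to genes higher in BI. Since genes higher in AL made up a larger share of the 24, these medians are not of like sets.

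In the list for mitochondrial gene expression and assembly, 4 of the 5 genes with values were higher in AL. OXA1L, whose product inserts mitochondrially made proteins into the inner membrane, had 844.8 ± 117.9 normalized counts in AL and 450.0 ± 115.1 in BI (SD, n = 4 each), a log2 FC of 0.93 and an r of 0.54. DHX30, an RNA helicase of mitochondrial RNA granules, had a log2 FC of 0.67 and an r of 0.24, FARS2, the mitochondrial phenylalanyl-tRNA synthetase gene, 0.85 and 0.45, and PTRH2, a peptidyl-tRNA hydrolase gene, 1.12 and 0.64. TOP3A, a topoisomerase that separates mitochondrial DNA circles, was higher in BI with a log2 FC of -1.18 and an r of -0.19.

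Of the matrix enzymes and cofactor genes, 7 of 8 were higher in AL. They were IDH3G, a subunit of an isocitrate dehydrogenase of the citric acid cycle (log2 FC 0.80), the aspartate aminotransferase GOT2 (1.31), the ketone body enzyme OXCT1 (1.17), the propionyl-CoA carboxylase subunit PCCA (1.18), the glutaminase GLS2 (0.75), the coenzyme Q synthesis gene COQ6 (2.06) and the iron-sulfur cluster assembly gene ISCA2 (0.71). AMT, an enzyme of glycine cleavage, was lower in AL (-0.97). The r of the 8 genes with ND4, ND4L and CYTB ran from -0.04 for PCCA to 0.67 for COQ6.

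Of the membrane, import and chaperone genes, 8 of 9 were higher in AL. MTFR1, a regulator of mitochondrial fission, had the highest r of the 24 genes with 0.89, and a log2 FC of 1.61. VDAC1, the main channel of the outer membrane, had the lowest r with -0.94. Its normalized counts were 40.0, 25.4, 25.8 and 43.8 in AL pigs 44, 49, 52 and 63 and 16.8, 16.5, 14.2 and 7.50 in BI pigs 25, 34, 36 and 37. BI pig 37, the highest BI pig for the 3 mitochondrial genes, was thus the lowest for VDAC1, at a level of few reads. The log2 FC was 1.08 for the import chaperone TIMM8B, 2.24 for HSPE1, the co-chaperonin of the matrix, 0.89 and 0.92 for the carriers SLC25A39 and SLC25A47, 1.55 for TMEM135 and 1.23 for NIPSNAP2. DNAJC11, a gene linked to cristae structure, was lower in AL (-1.01). Of the redox genes, TXNRD2, the mitochondrial thioredoxin reductase, had a log2 FC of 3.14 ± 0.56 (standard error) and an r of 0.55, while SELENOO was lower in AL (-0.74) with an r of 0.05.

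The nuclear genes of the respiratory complexes themselves were looked for by name. Of the 10710 genes, 64 carried a name of the forms sought for nuclear subunits of complexes I to V. Of these, 0 had values per pig, where 4.28% of all genes had them. Assembly factors with names of other forms were not covered, nor were genes without a name.

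Marker genes of the cell types in fat had values per pig only where they had been called different between the breeds. A breed difference in the markers below was therefore set by that choice. Of the adipocyte markers, ADIPOQ, PLIN1, CIDEC and LPL had an authors' mean only. The paper reports ADIPOQ as numerically higher in BI, without a significant difference. In bulk tissue, fewer cells of a type and less RNA per cell cannot be told apart. The summed normalized counts of the 4 of 8 adipocyte markers with values per pig (LEP, FABP4, SCD and FASN) lay between 5445 and 9851 in AL and between 1293 and 4138 in BI, and BI pig 37 with 2769.8 was second of the BI pigs. The within-breed r of this sum with ND4, ND4L and CYTB was 0.46. FASN made up most of the sum, with an r of 0.43. The r was 0.63 for the fatty acid carrier FABP4, for which BI pig 37 was the highest BI pig with 640.8, 0.20 for the desaturase SCD, and -0.15 for LEP, for which it was the lowest with 24.2. The sum of 3 of 6 endothelial markers was between 2182 and 3642 in AL and between 1386 and 1982 in BI, with BI pig 37 the highest BI pig and an r of 0.74. EGFL7 made up most of this sum, and TIE1 and CLEC14A were higher in BI with r of -0.69 and -0.88.

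The sum of 4 of 18 skeletal muscle markers (MYH7, MYBPH, FBXO40 and LSMEM2) was between 1314 and 2124 in AL and between 587 and 1022 in BI, with an r of 0.36. FBXO40 and LSMEM2 made up most of this sum. MYH7, the slow muscle myosin gene, went the other way, with a mean of 4.84 in AL and 24.2 in BI, a log2 FC of -2.04 with overlapping breeds and an r of -0.15. The authors' mean was 987 for the muscle creatine kinase gene CKM but 5.002 for the muscle actin gene ACTA1, and 8 of the 18 had no mean. The sum of 2 of 7 macrophage markers (LRRC25 and SPP1) was between 148 and 212 in AL and between 32.9 and 89.2 in BI, with an r of 0.56. IL2RA, the 1 of 4 T cell markers with values, was between 7.26 and 19.4 in AL and between 21.7 and 77.2 in BI, with an r of -0.26. None of 3 erythroid markers had values per pig, and HBB, the beta-globin gene, had an authors' mean of 53.4. The part of cell composition in the counts of ND4, ND4L and CYTB was not tested.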

How the data were processed

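RNA-seq of dorsal subcutaneous fat from 4 AL and 4 BI pigs was analysed, with groups taken from the sample titles. The authors trimmed reads with Trim Galore 0.5.0, aligned them to Sscrofa11.1 with HISAT2 2.1.0, processed alignments with SAMtools 1.9, counted with HTSeq 0.11.1 and normalized with DESeq2, per the methods and the submitters' processing notes. In each pig, the deposited signal is a gene's read count over the size factor of the library, computed by the authors, and the mean per gene is the authors' mean of this signal. The deposited log2 fold changes and standard errors, the score of each gene (the fold change over its standard error) and the p-values, raw and adjusted, are those of the authors' own breed comparison and were not used.

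Every value was a whole multiple of 1 step per pig within 0.02 steps, which gave the reads and the size factors; 359708 to 883622 reads per pig lay on the 458 genes, and counting errors cover counting only. Steps before the normalized counts were not repeated. Fold changes are differences of mean log2(normalized count + 1), a scale that understates the change of low genes, with no filter. Correlations used exact permutations within breeds, ratios exact permutations over all splits, each adjusted by Benjamini-Hochberg over 3. The members and gene lists, and the rule naming the members, mitochondrial genes, listed nuclear genes and the 5 genes most like the members, were chosen with earlier results of these data known. Gene names came from the per-pig list or the reference name table (8955 of 10710). Sequences were read from RefSeq Sscrofa11.1 and nuclear copies sought with BLASTN 2.17.0 (E-value limit 1e-10). Alternatives were pseudocounts of 0.1 and 10, other scalings, rank tests, limma over the 458 genes, and leaving out pigs. Scripts were tested on simulated data. Calculations were made in R 4.3.3 (limma 3.58.1) and in Python 3.11.15 (pandas 2.3.3, SciPy 1.17.1, NumPy 2.4.6 and Matplotlib 3.10.9).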

Additional observations from a re-analysis of the deposited data

Results flagged for a closer look

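In 70 groups of 4 pigs (32 named genes and 3 ratios in each breed), 7 held a pig whose gap to the nearest other pig, divided by the range of the group, was above Dixon's 95% critical value. Chance alone flags about 1 in 20 groups. BI pig 37 was far above the other BI pigs for ND4 with 17468.0 normalized counts (0.834 of the range) and for ND4L with 1686.6 (0.852), while CYTB and ATP6 stayed under the limit. The same pig was far above the others for HSPE1 with 18.3 normalized counts, DNAJC11 with 56.7 and ENSSSCG00000034755 with 2369.8. Without it, the log2 FC of these 3 genes was 2.66, -0.90 and 1.11. AL pig 52 stood apart from the other AL pigs for IDH3G with 978 normalized counts and for COQ6 with 74.2, below the others in both, and the log2 FC without it was 0.95 and 2.29.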

How the results depend on the processing

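The log2 FC of the 3 genes was positive under every alternative run. Leaving out each pig in turn gave 1.17 to 1.89 for ND4, 1.48 to 2.44 for ND4L and 1.03 to 1.62 for CYTB, with the highest values without BI pig 37 and the lowest without BI pig 25. Upper-quartile scaling over the 458 genes gave 0.81, 1.21 and 0.63, and the last moved by more than the spread between pigs, while median-of-ratios scaling gave 0.94, 1.35 and 0.76. These scalings rest on genes called different, and the cause of the shift was not tested. Within-breed r stayed positive: leaving out each pig in turn gave 0.916 to 0.992 for ND4 with ND4L, 0.889 to 0.989 for ND4 with CYTB and 0.729 to 0.981 for ND4L with CYTB, and without the 2 farthest pigs it was 0.932, 0.889 and 0.598. For all 3 pairs the adjusted p was above 0.05 without BI pig 25, without BI pig 37 and without the 2 farthest pigs, where fewer pairings are left. The ratios kept their sign under every alternative run, and 1 ratio alone could not have passed the threshold after adjustment, so their p-values say nothing about stability. The 364 genes without overlap, of 458, became 212 on unscaled reads, 236 with upper-quartile scaling and 273 with median-of-ratios scaling. Among the 295 genes with a mean of at least 50, 243 had no overlap. By another measure, limma called 455 of the 458 genes, all of which the study had already called different in these pigs. Of the genes without overlap, 60.7% were higher in AL with the authors' size factors, 17.0% on unscaled reads, 37.4% with median-of-ratios and 25.4% with upper-quartile scaling. Leaving out each pig in turn, which was added after the data were seen, gave 368 to 411. TMM scaling, edgeR and DESeq2 were not run. No paired analysis was possible because the breeds share no replicate number.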
